A study of Rangifer tarandus with 4 samples.

Results

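The genes of oxidative phosphorylation encode the protein complexes of the inner mitochondrial membrane that pass electrons from food to oxygen and use the energy to make ATP. They were taken from the cattle (Bos taurus) gene annotation deposited with a study of reindeer blood cells. Members were all protein-coding genes on the mitochondrial chromosome, together with nuclear genes whose symbols belong to the subunit families of complexes I to V; assembly factors of complex I were left out by name. The rule found 98 genes among 21880 in the annotation, of which 85 were nuclear and 13 mitochondrial. No symbol was carried by more than 1 member. Of the subunit symbols listed for the complexes, 44 of 44 were matched for complex I, 4 of 4 for complex II, 10 of 10 for complex III, 12 of 14 for complex IV and 19 of 19 for complex V. In that list NDUFA4 stood with complex IV, whereas the counts and medians below place it, by name, with complex I. The symbols COX6C and COX7C, both of complex IV, were absent under these names and are not analysed here.

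In the study, reindeer (Rangifer tarandus) were wounded and their peripheral blood mononuclear cells were sampled on day 3. Blood was drawn from the saphenous vein (back, 2 libraries) or from the distal antler velvet (antler, 2 libraries), and about 12000 cells were loaded per library for single-cell RNA sequencing from the 3′ end of transcripts. The titles carry the codes 5XD and 4XE, each with 1 library per site, and the labels used give no strain, age or sex. Counts per cell were not used here. The values therefore describe gene models, and neither levels in the blood cells nor an antler comparison can be read from them. They are positions on the cattle assembly ARS-UCD1.2, counted from 1, and have no replicates.

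Complex I oxidises NADH, complex II oxidises succinate, and both hand electrons to a quinone. Complex III passes these electrons to cytochrome c, complex IV passes them to oxygen, and complex V, the ATP synthase, lets protons flow back to make ATP. In mammals the proteins of complex II are all encoded in the nucleus, whereas the other complexes join nuclear subunits to a few subunits made inside the mitochondrion. Mitochondrial messages are cut from long transcripts at the transfer RNAs between them, carry almost no untranslated sequence, and can end in the middle of a stop codon that the added poly(A) tail completes. Nuclear messages have a 5′ and a 3′ untranslated region (UTR), and reads of a 3′ assay fall mainly near the end of the latter.

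The mitochondrial members were 7 subunits of complex I, 1 of complex III, 3 of complex IV and 2 of complex V. They carried 11376 of the 62403 coding bases of all members, or 18.2%. From the first base of ND1 to the last base of CYTB the chromosome ran over 12553 bases, and gene models covered 90.3% of them. All but 1 lay on the plus strand, the exception being ND6. Of the 12 pairs of neighbouring genes, 4 overlapped and 8 were separated by 70 to 379 bases. The widest separation was between ND2 and COX1, where the annotation used listed no gene; it listed no transfer RNA genes.

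In 5 of the 13 mitochondrial models no stop codon was annotated, and these were the 5 whose coding length was not a whole number of codons. ND1 (ENSBTAG00000043558, 3101 to 4056, plus strand), a membrane subunit of complex I, had 956 coding bases, which are 318 codons and 2 further bases. ND2, with 1042 bases, had 347 codons and 1 further base. COX3, a core subunit of complex IV, had 781 bases and likewise 1 base beyond 260 codons. ND3 with 346 bases and ND4 with 1378 bases also ended 1 base into a further codon. The other 8 models had a stop codon and whole codons, and so did all nuclear members, of which 0 had a remainder and 0 lacked a stop codon. A missing stop codon was rare in nuclear genes at large, with 62 of the 16710 other named nuclear protein-coding genes.

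**Figure D1:**
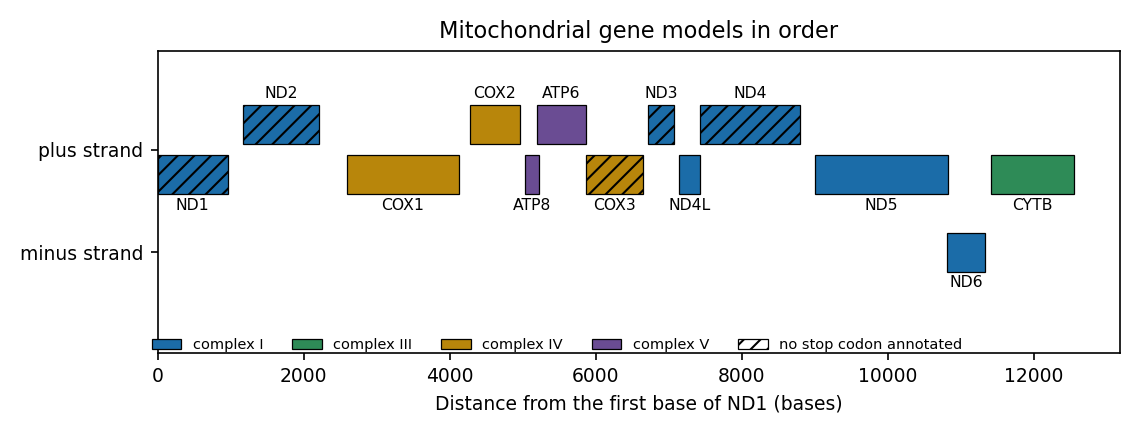
The 13 mitochondrial gene models are drawn to scale as bars by distance in bases from the first base of ND1, on the plus strand (in alternating rows, for legibility) and the minus strand; colours give the complex and hatching marks models without an annotated stop codon. The 5 hatched models are ND1, ND2, COX3, ND3 and ND4, and ND6 alone lies on the minus strand.

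The mitochondrial coding lengths ran from 198 bases in ATP8 to 1818 bases in ND5. ATP8 and ATP6 encode membrane subunits of the ATP synthase, and ATP6 had 678 coding bases. The core subunits of complex IV, COX1, COX2 and COX3, had 1542, 681 and 781 bases. COX1 holds the site where oxygen is reduced. CYTB, the cytochrome b of complex III, had 1137 bases (ENSBTAG00000043550, 14514 to 15653, plus strand). Among the complex I subunits, ND4L was shortest with 294 bases and ND6 had 525 bases. The models of ND5 and ND6 overlapped by 17 bases on opposite strands, tail to tail, and ND6 and CYTB were 73 bases apart head to head. The median coding length was 781 bases in mitochondrial members (13 genes) and 456 bases in nuclear members (85 genes), and the ranges overlapped, as nuclear members ran from 153 to 2181 bases.

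Nuclear members had short coding sequences and few exons. A coding length under 600 bases was found in 59 of 85 nuclear members, and in 12.3% of the 16710 other named nuclear protein-coding genes, whose median was 1350 bases. The median exon count was 4, against 8 in the other named genes; 62 members had 2 to 5 exons and 10 had 10 or more. A single exon was found in 1 of 85 nuclear members, COX7B2, against 4.33% of the other named genes. Among the 2881 other named genes with a coding length between the quartiles of the members (324 and 747 bases), a comparison chosen after the data were seen, the median exon count was also 4. These genes, called those of like coding length below, had a median coding length of 573 bases. They are set against all 85 nuclear members, whose median was 456 bases, so the match in length is only approximate. Across the 85 nuclear members longer coding sequences went with more exons (Spearman's rho 0.72), with the same rho of 0.72 across the other named genes; genes are not independent replicates. The median coding bases per coding exon were 107 in nuclear members, against 154 in the other named genes and 130.5 in those of like coding length.

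**Figure D2:**
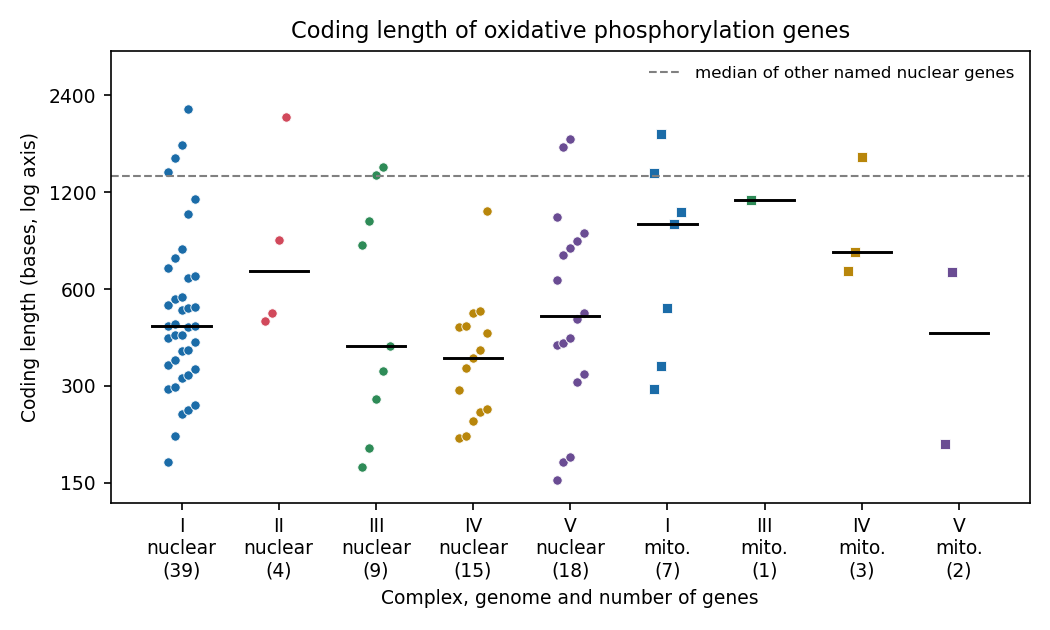
Each point is the coding length in bases (log axis) of 1 gene, by complex for nuclear genes (circles) and mitochondrial genes (squares), with the number of genes in brackets; black bars are medians and the dashed line is the median of other named nuclear genes, 1350 bases. The nuclear medians lie between 366 bases in complex IV and 681 bases in complex II, all below the dashed line.

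Complex I held 39 nuclear members, counted by name, with a median coding length of 462 bases. The 7 nuclear core subunits, which include the carriers of the flavin and iron-sulfur centres and have relatives in bacteria, had a median of 798 bases and 9 exons, and the other 32 had 427.5 bases and 4 exons. NDUFS1, the largest core subunit (ENSBTAG00000021976, chromosome 2, 94460487 to 94489927, minus strand), had the longest coding sequence with 2181 bases and the most exons, 19. NDUFV1, which binds the flavin and NADH, had 1683 bases in 10 exons. The shortest core subunit was NDUFS7, an iron-sulfur protein, with 648 bases in 9 exons.

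The accessory subunits of complex I surround that core. NDUFB1 had the shortest coding sequence, 174 bases in 3 exons. NDUFC1 and NDUFS5 had the fewest exons, 2 each in the transcript with the longest coding sequence, and up to 4 and 3 in others. The 15 members whose symbols begin with NDUFA, which include NDUFAB1, NDUFA4 and NDUFA4L2, had a median of 423 coding bases. The 11 of the NDUFB family had 411. NDUFV3 stood apart, with 1536 coding bases in 3 exons. NDUFS4, a subunit of the NADH-oxidising arm, had the largest gene span of all members, 115619 bases, of which its first intron took 60811, for 525 coding bases in 5 exons. NDUFAB1, the mitochondrial acyl carrier protein, had 468 coding bases, and its stop codon lay in exon 4 of 5.

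Complex II has 4 subunits, and all are nuclear. SDHA, the flavoprotein that oxidises succinate (ENSBTAG00000046019, chromosome 20, 71804557 to 71827899, minus strand), had 2049 coding bases in 15 exons. SDHB, the iron-sulfur subunit (ENSBTAG00000008314, chromosome 2, 135548907 to 135578120, plus strand), had 855 bases in 8 exons. The membrane anchors were shorter: SDHC (ENSBTAG00000015853, chromosome 3, 8177617 to 8208058, minus strand) had 507 bases in 6 exons and SDHD (ENSBTAG00000016266, chromosome 15, 22397453 to 22409057, plus strand) had 477 bases in 4 exons. The anchors had the longer 3′ UTRs, 759 bases in SDHC and 814 in SDHD, against 216 in SDHA and 118 in SDHB. The 5′ UTRs were 189 bases in SDHB, 52 in SDHA, 30 in SDHD and 27 in SDHC.

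Complex III held 9 nuclear members. The core proteins UQCRC1 and UQCRC2, which are related to mitochondrial processing peptidases, had 1440 and 1359 coding bases and 14 exons each. CYC1, cytochrome c1, had 975 bases in 7 exons. UQCRFS1, the Rieske iron-sulfur protein, had 822 bases in only 2 exons (ENSBTAG00000046786, chromosome 18, 997260 to 1002080, minus strand). The small subunits ran from 168 bases in UQCR11 to 399 in UQCRQ, and UQCR10 had 192 bases in 2 exons. All 9 had a 3′ UTR, within a narrow range from 101 bases in UQCRQ to 284 in UQCRFS1. The 5′ UTRs ranged from 2 bases in UQCRC1 to 590 in UQCRH, the hinge protein, and UQCRQ had none. The UQCRH transcript with the longest coding sequence had no 5′ UTR.

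Complex IV held 15 nuclear members, none of them a catalytic subunit, and had the shortest median coding length of the complexes, 366 bases, with a median of 3 exons. COX8A was shortest with 207 coding bases in 2 exons, and COX4I2 longest with 1047 in 5 exons, the longer of its 2 annotated coding lengths. COX4I1, COX4I2 and COX5A had the most exons, 5 each. Several subunits come in pairs of which 1 gene is widely used and the other is known from particular tissues in mammals. In the heart and skeletal muscle group, COX6A2 had 291 coding bases beside 513 in COX6A1, COX7A1 had 462 beside 249 in COX7A2, and COX8B had 210 beside 207 in COX8A. The COX6A1 transcript with the most exon bases had 327 coding bases, nearer to COX6A2. COX7A2L, a relative that joins complexes into larger assemblies, had 342 bases.

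The other pairs included isoforms known from lung and testis. COX4I1 (ENSBTAG00000016079, chromosome 18, 11758912 to 11767078, plus strand) had 507 coding bases, and COX4I2, its lung isoform, had 1047 in its longer model, with 5 exons in both. COX6B1 and its testis isoform COX6B2 had 438 and 366 bases, in 4 and 2 exons. COX7B had 255 coding bases in 3 exons and an 889-base 3′ UTR. Its testis isoform COX7B2 (ENSBTAG00000050016, chromosome 6, 65334350 to 65334586, minus strand) had 234 coding bases in 1 exon and neither UTR. NDUFA4, named for complex I but since assigned to complex IV, had 246 coding bases, and its paralog NDUFA4L2 had 261, both in 4 exons.

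Complex V held 18 nuclear members with a median coding length of 493.5 bases and a median of 5 exons. In the catalytic head, the alpha subunit ATP5F1A and the beta subunit ATP5F1B had 1659 and 1749 bases in 12 and 10 exons. The gamma subunit ATP5F1C, which forms the rotating shaft, had 894 bases, the delta subunit ATP5F1D 504 and the epsilon subunit ATP5F1E 153, the shortest coding sequence of all members. The peripheral stalk, which holds the head still, was encoded by ATP5PO, ATP5PB, ATP5PD and ATP5PF with 639, 768, 483 and 846 bases. ATP5PO, ATP5PB and ATP5PF each had 2 transcripts that differ in coding length, and the longer length is given. In ATP5PF the transcript with that length had no 5′ UTR. ATP5IF1, the inhibitor that stops ATP from being broken down, had 327 bases. The small membrane subunits ATP5MD and ATP5MPL had 174 and 180 bases. The fewest exons in this complex were 3, in ATP5F1E, ATP5IF1, ATP5ME (4 in another transcript), ATP5MG and ATP5MPL.

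The rotating c ring is made from ATP5MC1, ATP5MC2 and ATP5MC3, which in mammals encode the same mature protein behind different import signals. ATP5MC1 and ATP5MC3 had 408 and 423 coding bases in 5 exons, with the start codon in exon 2. ATP5MC2 (ENSBTAG00000005735, chromosome 5, 26370053 to 26378227, plus strand) had 1008 coding bases in 5 exons. It was the only 1 of 85 nuclear members without an annotated start codon, which 3.27% of the other named genes lacked, and it had neither UTR. ATP5ME, another small membrane subunit, had 807 coding bases in its longest model.

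**Figure D3:**
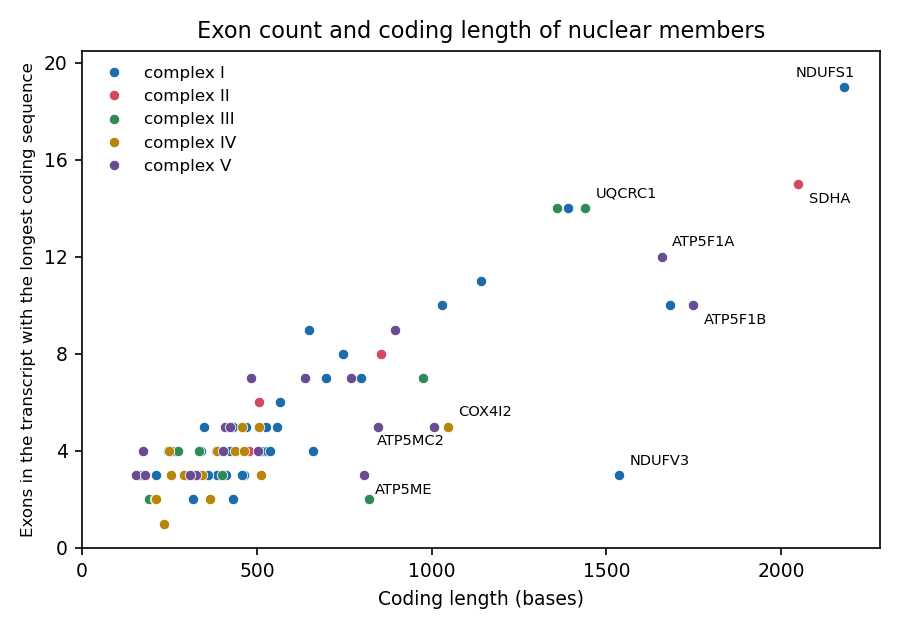
Each point is 1 of the 85 nuclear members, with coding length in bases on the horizontal axis and the exon count of the same transcript on the vertical axis; colours give the complex. NDUFS1 is at the upper right with 2181 bases and 19 exons, and NDUFV3 lies at the lower right with 1536 bases in 3 exons.

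A 3′ UTR was annotated for 80 of 85 nuclear members, or 94.1%, against 79.8% of the other named genes and 84.5% of those of like coding length, and these 3′ UTRs were short. Their median was 168 bases (quartiles 106.75 and 341), against 653 bases in the other named genes (quartiles 289 and 1179) and 535 bases in those of like coding length. In 50 members, or 58.8%, the 3′ UTR was shorter than 200 bases, which held for 13.3% of the other named genes. With a minimum of 200 bases the order turned, as 35.3% of nuclear members and 66.4% of the other named genes reached it. A 3′ UTR longer than the coding sequence was found in 18 of 85 members, or 21.2%, against 19.8% of the other named genes and 41.1% of those of like coding length. Across the 80 members with a 3′ UTR, its length showed little relation to coding length (Spearman's rho 0.07), as across the other named genes (rho 0.11).

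The medians were 143 bases in complex I, 487.5 in complex II, 184 in complex III, 169.5 in complex IV and 162 in complex V. The range over members, from 18 to 1211 bases, was wider than these differences, and complex II holds only 4 genes. The longest belonged to NDUFA7 of complex I with 1211 bases (ENSBTAG00000052280, chromosome 7, 16959614 to 16967925, minus strand), followed by NDUFS4 with 1203. COX8B with 1132, COX5B with 1063, NDUFS1 with 1024 and ATP5PD with exactly 1000 bases complete the 6 members that reached 1000 bases. In the other named genes with a 3′ UTR such lengths were common, as their upper quartile was 1179 bases. The shortest was that of NDUFA6 with 18 bases. In complex IV the shortest was 60 bases, in COX6A2, and in complex V 69 bases, in ATP5PO. The 7 core subunits of complex I had a median of 82 bases, from 53 in NDUFS8 to 1024 in NDUFS1, and the other 30 with a 3′ UTR a median of 155.

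No 3′ UTR was annotated for NDUFA12, NDUFA13, COX7B2, ATP5F1A and ATP5MC2. ATP5F1A had a 697-base 5′ UTR, the longest of complex V, and NDUFA13 an 832-base 5′ UTR, whereas COX7B2 and ATP5MC2 had neither. In COX6B1, NDUFC1 and UQCRH a 3′ UTR of 135, 167 and 193 bases was annotated only outside the transcript with the longest coding sequence, which left 77 members with a 3′ UTR in that transcript. The 3′ UTR of NDUFS4 measured 70 bases in the transcript with the longest coding sequence and 1203 in another. An intron after the stop codon was found in 5 members, NDUFAB1, UQCR11, COX5A, ATP5F1E and ATP5MD, or 5.88%, against 3.36% of the other named genes and 4.86% of those of like coding length.

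**Figure D4:**
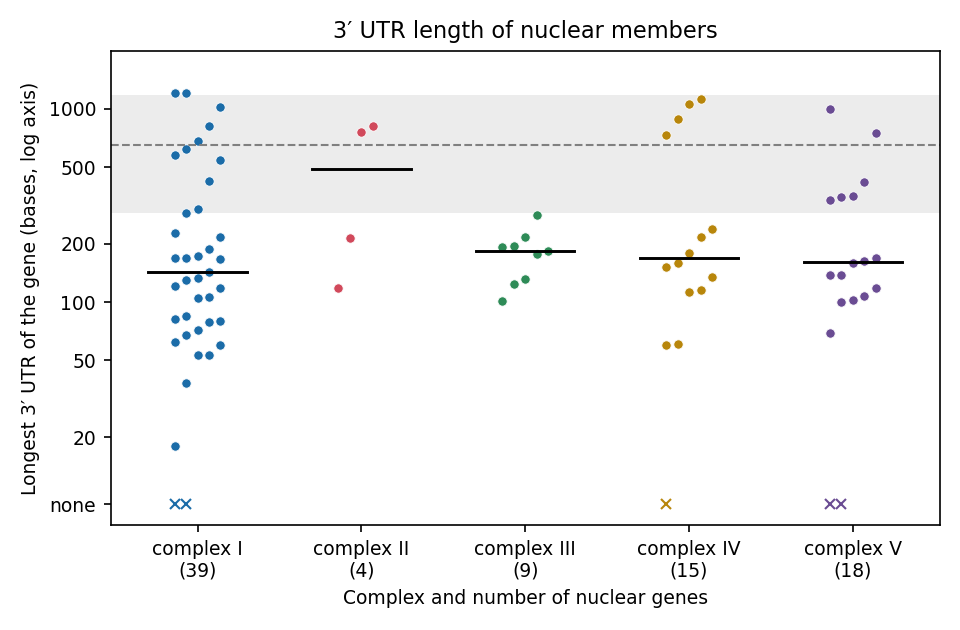
Each point is the longest 3′ UTR in bases (log axis) of 1 nuclear gene, by complex; crosses at the bottom are genes without a 3′ UTR, black bars are medians of genes with one, and the dashed line and grey band are the median and quartiles of other named nuclear genes. The medians of complexes I, III, IV and V, from 143 to 184 bases, lie below the grey band, which starts at 289 bases.

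A 5′ UTR was annotated for 77 of 85 nuclear members, or 90.6%, against 80.6% of the other named genes and 84.3% of those of like coding length. The difference from the other named genes was 9.95 percentage points, and it was 6.31 points against genes of like coding length and 4.14 points without complex I. The median was 107 bases, against 211 in the other named genes and 157 in those of like coding length. Complex IV had the highest median of the complexes, 240 bases, and complexes II and III the lowest, 41 and 45.5 bases. The longest 5′ UTRs were those of NDUFS8 with 983 bases (428 in the transcript with the longest coding sequence), NDUFS5 with 965, NDUFB11 with 913 and COX5A with 908. The shortest were 2 bases in UQCRC1 and 4 in NDUFS3; in complexes IV and V they were 37 in COX6B1 and 34 in ATP5ME. Members without a 5′ UTR were NDUFA7, UQCRQ, COX4I2, COX7A1, COX7B2, ATP5F1B, ATP5MC2 and ATP5MPL. In UQCRH, ATP5ME and ATP5PF a 5′ UTR of 590, 34 and 49 bases was annotated only outside the transcript with the longest coding sequence. The start codon lay after the first exon in 9 members, or 10.6%, against 22.9% of the other named genes and 21.3% of those of like coding length; in ATP5PD, a stalk subunit, it lay in exon 3 of 7. More than 1 transcript was annotated for 26 members, or 30.6%, against 46.2% of the other named genes and 29.8% of those of like coding length, and NDUFV3 had the most with 4.

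The 5′ ends of many nuclear members lay close to the 5′ end of a gene on the opposite strand. Such a head-to-head neighbour within 1000 bases was found for 23 of 85 nuclear members, or 27.1%, against 9.01% of the other named genes and 11.1% of those of like coding length. In 17 of the 23 the gene models did not overlap, with a median distance of 167 bases (from 21 to 595), and in 6 they overlapped. Among the other named genes with such a neighbour the models overlapped in 388 of 1505, a similar share. Counting only models without overlap, the shares were 20% of nuclear members and 6.68% of the other named genes. The count was 12 in complex I, 2 in complex II, 2 in complex III, 1 in complex IV and 6 in complex V. Just outside the limit were NDUFB10, whose model overlapped that of RPL3L by 1013 bases, NDUFA11 at 1100 bases from VMAC and NDUFB3 at 1201 bases from FAM126B. These distances depend on where the annotation places the 5′ end.

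The neighbours were not grouped by function, and those with a role given here were picked after their names were seen. SDHD lay 128 bases from TIMM8B, which encodes a chaperone of mitochondrial protein import. NDUFB5 (ENSBTAG00000002463, chromosome 1, 87503557 to 87518661, minus strand) overlapped MRPL47, a protein of the mitochondrial ribosome, by 128 bases. ATP5PF (ENSBTAG00000000605, chromosome 1, 10690694 to 10698960, plus strand) overlapped GABPA, with 215 exon bases in common, and their 5′ ends were 1000 bases apart, at the limit. GABPA encodes a subunit of a transcription factor known for activating genes of the respiratory chain. NDUFA7 lay 136 bases from RPS28, which encodes a protein of the cytosolic ribosome. NDUFS1 lay 167 bases from EEF1B2, a translation elongation factor subunit, and NDUFB1 287 bases from CPSF2, of the 3′ end processing complex.

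The other head-to-head pairs without overlap were, in complex I, NDUFA13 with TSSK6 at 21 bases, NDUFB9 with TATDN1 at 46, NDUFA8 with MORN5 at 61, NDUFA1 with RNF113A at 88, NDUFS3 with KBTBD4 at 141, NDUFA2 with IK at 226 and NDUFA3 with OSCAR at 595. In complexes II and III they were SDHA with CCDC127 at 210 bases, UQCR10 with ZMAT5 at 277 and UQCRH with LRRC41 at 395. In complex V, ATP5PD lay 88 bases from KCTD2, ATP5MD 171 bases from PDCD11 and ATP5PB 251 bases from WDR77. A head-to-head neighbour was found for 3 of the 4 stalk genes, 1 of the 5 genes of the head and none of the 3 c ring genes, against 9.01% of the other named genes. These groups are small and were formed after values were seen, so no difference between them can be read. The remaining overlapping pairs were NDUFB11 with RBM10, ATP5F1C with KIN, ATP5MG with MPZL2 and COX4I1 with EMC8. COX4I1 was the only member of complex IV with a head-to-head neighbour, and its overlap with EMC8 of 805 bases held 4 shared exon bases.

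**Figure D5:**
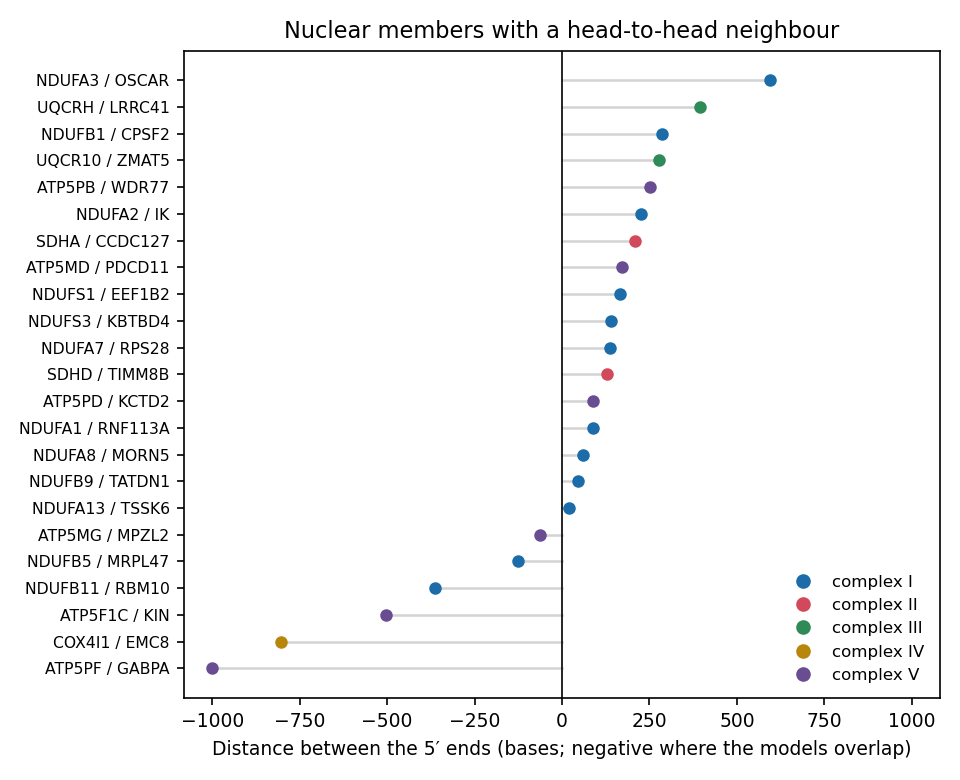
Each row is 1 of the 23 nuclear members with a head-to-head neighbour, named after the slash, and the point gives the distance in bases between the 5′ ends, negative where the models overlap; colours give the complex. The 17 pairs without overlap lie between 21 and 595 bases, and ATP5PF with GABPA lies at the limit of 1000 bases.

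Exon bases shared with a gene on the same strand, which a strand-aware 3′ assay cannot assign by position alone, were found in 1 of 85 nuclear members, against 1.78% of the other named genes and 2.01% of those of like coding length. This was NDUFA13 (ENSBTAG00000007812, chromosome 7, 3801697 to 3810659, minus strand), an accessory subunit without a 3′ UTR. Its model shared 190 exon bases with the unnamed gene ENSBTAG00000014968, which follows it downstream. Of the 13 mitochondrial members, 5 also shared bases on the same strand: ATP8 and ATP6 40, ATP6 and COX3 1, and ND4L and ND4 7. With either strand counted, 15 of 85 nuclear members shared exon bases, or 17.6%, against 9.08% of the other named genes and 9.09% of those of like coding length. The largest such overlaps were those of COX6A2 with ITGAD, 700 bases, COX8B with PSMD13, 506 bases, and ATP5F1C with KIN, 439 bases. NDUFB11 shared 301 bases with RBM10, NDUFA2 209 with TMCO6, UQCRC2 140 with PDZD9 and NDUFB9 132 with MTSS1. NDUFS5, NDUFA4L2 and ATP5MD shared 36, 21 and 5 bases, with ENSBTAG00000053378, SHMT2 and TAF5.

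Nuclear members were spread over 24 of 30 chromosomes, with none on chromosomes 10, 12, 16, 23, 27 and 28 and 0 on unplaced scaffolds. Chromosome 7 held the most, 9, and 3 lay on the X chromosome, the accessory subunit genes NDUFA1, NDUFB11 and COX7B. Neighbouring members lay within 1000 kb of each other in 8 pairs on 6 chromosomes. No such count was made for other genes, so it cannot be told apart from ordinary gene density. Among them were the genes of the core subunits NDUFV1 and NDUFS8 on chromosome 29, 90.3 kb apart. On chromosome 7, members of 3 complexes followed each other: ATP5F1D, NDUFS7 after 119.9 kb, UQCR11 after a further 162 kb and UQCRQ after a further 468.1 kb. COX8B (ENSBTAG00000002046, chromosome 11, 82921987 to 82924620, minus strand) lay inside the span of NBAS.

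Other genes of the pathway were read from a list of 58 symbols, of which 57 were matched and UQCC2 was not. They assemble the complexes, carry electrons, express mitochondrial DNA or regulate the pathway. Their median coding length was 891 bases with 5 exons. A 3′ UTR was annotated for 54 of 57, or 94.7%, and its median was 311.5 bases. A head-to-head neighbour within 1000 bases was found for 19 of the 57, or 33.3%, beside 27.1% of the nuclear subunit genes and 9.01% of the other named genes, which include the pathway list. Among them were the complex I assembly factors NDUFAF2, NDUFAF5, NDUFAF7 and NDUFAF8, the complex IV assembly factors SURF1 (45 bases from SURF2) and SCO1, and TWNK, the mitochondrial DNA helicase, 648 bases from MRPL43. The genes without a 3′ UTR were TTC19, COA7 and PET117. CYCS, which encodes the electron carrier cytochrome c, had 315 coding bases in 3 exons and a 524-base 3′ UTR. LRPPRC, which steadies mitochondrial messages, had the longest coding sequence of the list, 4173 bases in 38 exons.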

How the data were processed

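The material was a cattle gene annotation that the authors deposited, in which a feature has a start and an end in bases on assembly ARS-UCD1.2, per the file headers. The submitters' processing notes list STAR, Seurat and Cell Ranger 3 and assign none of them a step. The sources used here do not say how reads of reindeer were matched to cattle genes. The members and lists were chosen with earlier results of these data known, and the grouping by role, the comparison with genes of like coding length and some names were chosen after values were seen.

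Exon count and coding length (without the stop codon) come from the transcript with the longest coding sequence, and UTR lengths are the longest over transcripts (at least 1 base). Head-to-head neighbours lie on opposite strands, point apart and have 5′ ends at most 1000 bases apart. Comparison genes were the 16710 other named nuclear protein-coding genes. The members are a whole set in 1 annotation without replicates, so no test was run and the planned comparison of antler with back was not made. Genes named were all mitochondrial members, the extremes of each complex, complex II, paralogs, and nuclear members with a missing UTR, shared exon bases or a head-to-head neighbour; others were named after their values were seen. Values of 1 member are not reported here, though it is included in the counts and medians. The scripts were tested on simulated data. The tools were Python 3.11.15, pandas 2.3.3, NumPy 2.4.6, SciPy 1.17.1 and matplotlib 3.10.9. Alternatives changed the transcript, the minimum UTR length, the distance, the comparison genes and the complexes included.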

Additional observations from a re-analysis of the deposited data

How the results depend on the processing

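Values were recomputed with other transcripts, minimum lengths, member sets, comparison groups and distances, 210 alternative values of 26 results. Of these, 197 stayed within the 95% exact binomial interval (shares of members) or within 1.5 times the value given (others), 11 moved further, 1 changed sign and 1 came to 0. Many of the 197 could not move. Values of members alone stay the same where only the comparison genes changed. They also stay the same on assembled chromosomes only, as no member lay on an unplaced scaffold. The count of 197 therefore does not measure how stable the results are, and the interval served only as a yardstick. With a 3′ UTR of at least 200 bases the share of members was 35.3% and the difference from the other named genes −31.1 percentage points, against 14.4 with at least 1 base; the minimum length by construction removes short 3′ UTRs. Against genes of like coding length, chosen after the data were seen, the difference in median exon count was 0, in 5′ UTR share 6.31 points, in median 5′ UTR −50 bases and in median coding length −117 bases (−4 exons, 9.95 points, −104 bases and −894 bases against all other named genes). Against all other nuclear genes, unnamed ones included, the differences were 28.7 points for 3′ UTRs, 24.2 points for 5′ UTRs and −2 exons, and against genes with coding lengths in the range of the members −2 exons. Without complex I the 5′ UTR difference was 4.14 points, and the count of nuclear members sharing exon bases on the same strand was 0. With either strand that count was 15 over all nuclear members. No paired analysis was possible because the annotation holds no values of samples. Gene models limit what can be read here: they are those of cattle, and a missing UTR means only that none was annotated.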

Other observations

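COX8B, the muscle isoform of a complex IV subunit, lay within an intron of NBAS on chromosome 11. The NBAS model (ENSBTAG00000014081, chromosome 11, 82736891 to 83207199, plus strand) spanned 470309 bases, and 1 intron of 147658 bases (82855065 to 83002722) held 11 genes, COX8B included. Of these 10 were named, among them SIRT3, which encodes a mitochondrial deacetylase, RIC8A, PSMD13 and NLRP6. These genes lay on both strands, and COX8B and PSMD13 overlapped by 506 exon bases. The placement is that of the annotation; it was not compared with another assembly.

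The longest 3′ UTR of ATP5PD measured exactly 1000 bases, a value found for 550 genes of the annotation, ATP5PD included.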
